A study of Mus musculus with 18 samples.

Results

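Rab GTPases are the small GTP-binding proteins that give each membrane of the cell its address and direct the traffic of vesicles between membranes. The genes described here are those whose symbol is Rab followed by a number and at most 1 letter, or by a number, the letter l and a number. The rule found 59 of the 27179 genes listed, and 51 of them had a mean normalized count of at least 10 over the 18 libraries, as did 14353 genes in all. The rule used no measured difference between groups, although a gene high in 1 group alone could reach the mean of 10.

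The study asked whether factors released by young mesenchymal stem cells (MSCs) alter old MSCs. MSCs were grown from the bone marrow of C57BL6 mice, which the study describes as male, and were used at passages 2 to 5. Young MSCs came from donors of 6 weeks and Old MSCs from donors of 18 to 24 months. Rejuvenated Old MSCs were old MSCs kept for 7 days across a 0.4 µm membrane from young MSCs, with 100000 cells in a well, so that dissolved factors and small vesicles but not cells could pass. Each group held 6 libraries of total RNA from cells at day 7, and no transgene or deletion is given for any. Old MSCs grown beside other old MSCs are not among the 3 groups analysed here, and the effects of a second cell layer and of the youth of its donors cannot be told apart. The labels call the replicates biological but do not tie them to separate animals, and p-values then measure the spread between these cultures, which may be technical.

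A Rab cycles between a GDP-bound form held in the cytosol and a GTP-bound form on a membrane. Guanine nucleotide exchange factors (GEFs) load it with GTP, GTPase-activating proteins (GAPs) turn it off, and effectors such as tethers and motors read the active form. A lipid tail, added by a geranylgeranyl transferase with the help of an escort protein, lets it hold on to the membrane. Secreted proteins leave the cell through steps that Rabs of the endoplasmic reticulum (ER), Golgi and secretory vesicles control, and endocytosed cargo is sorted by Rabs of the endosomes and lysosomes.

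Reads on genes numbered 22936251 to 25648769 in Young, 24965971 to 29559194 in Old and 26018046 to 29155223 in Rejuvenated Old libraries. All Young libraries were thus less deep than all Rejuvenated Old libraries. Library facts other than age and co-culture went with the groups. The Y-linked genes Ddx3y, Eif2s3y, Kdm5d and Uty reached no more than 3 reads in any Young library, whereas all Old and Rejuvenated Old libraries expressed them. Xist, made from an inactive X chromosome, was low in all groups, at 21.2 to 41.2 normalized counts in Young, 1.97 to 14.4 in Old and 4.83 to 10.3 in Rejuvenated Old libraries. The summed level of 12 stromal markers ran from 322363 to 348916 normalized counts in Young, 444860 to 471001 in Old and 435493 to 467784 in Rejuvenated Old libraries. Of these 12, 5 were higher in all Young than in all Old libraries (Col1a2, Ly6a, Nt5e, Pdgfra and Thy1), 6 were lower (Cd44, Cxcl12, Eng, Lepr, Pdgfrb and Vcam1) and Col1a1 overlapped. Thy1 reached no more than 3 reads in any Old library, and the median of Cxcl12 was 9215 in Young and 197597 in Old. The summed level of 12 macrophage markers ran from 923 to 1040 in Young, 14196 to 17945 in Old and 14289 to 17449 in Rejuvenated Old libraries. Of these macrophage markers, 6 reached no more than 3 reads in any Young library, Ptprc and Adgre1 among them. Genes of whole chromosomes also stood apart between Young and Old libraries, with a median log2 difference of -0.69 on chromosome 1, 0.61 on 7, -0.46 on 12 and -0.75 on 16. The part of sex, macrophage transcripts and chromosome in the differences between Young and Old MSCs was not tested. In RNA from a whole culture, fewer cells of a type and less RNA per cell cannot be told apart.

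The Rab genes spanned a wide range of levels. Compared per kb of transcript, and averaged over the 18 libraries, the highest were Rab5c of early endosomes with 3386, Rab1b of the ER exit route with 3195 and Rab2a of the Golgi with 2638 normalized counts per kb. The lowest were Rab37 with 4.67, Rab27a with 5.32 and Rab38 with 10.2 normalized counts per kb, which are Rabs of secretory granules and melanosomes. The order differed by group. In Young MSCs the late endosome Rab9 led with a group mean of 3323 normalized counts per kb, before the Golgi Rabs Rab34 and Rab2a with 3165 and 3133. In Old MSCs Rab5c and Rab1b led with 3878 and 3752, and in Rejuvenated Old MSCs the same genes led with 3769 and 3417. At the other end, Rab44 of granule release was the lowest in Old and Rejuvenated Old MSCs, with group means of 0.278 and 0.627 normalized counts per kb. In Young MSCs the lowest were Rab38 with 1.76 and Rab15, a recycling Rab, with 2.84.

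**Figure D1:**
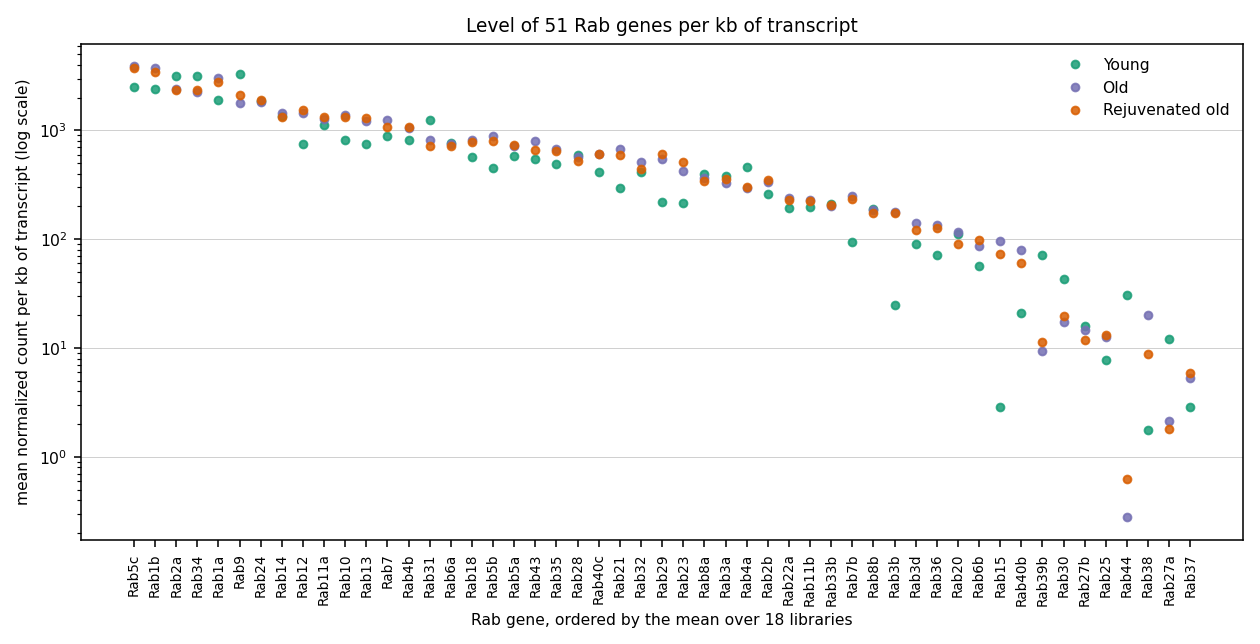
Mean normalized count per kb of transcript (log scale) of each of the 51 Rab genes in Young, Old and Rejuvenated Old MSCs, ordered by the mean over 18 libraries. Points are means of 6 libraries, and the 3 groups lie together for most genes but far apart for Rab15, Rab3b, Rab39b, Rab44 and Rab38.

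Between Rejuvenated Old and Old MSCs, 20 of the 51 Rab genes changed (limma adjusted p under 0.05), which is 39.2% against 41.6% of all genes tested. By direction, 4 rose (7.84%, against 21% of all genes) and 16 fell (31.4%, against 20.6%). The libraries of the 2 groups did not overlap for 9 Rab genes (17.6%, against 22% of all genes), with Rejuvenated Old higher for 1 (1.96%, against 10.4%) and lower for 8 (15.7%, against 11.6%). The median log2 difference was -0.06 over the Rab genes and 0.01 over all genes, and the median size of a difference was 0.10 against 0.15. The share of Rab genes that changed was thus near that of all genes, and most changes were small.

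Between Young and Old MSCs, 44 of the 51 Rab genes differed, 86.3% against 85.7% of all genes tested. Of these, 11 were higher in Young (21.6%, against 41.6% of all genes) and 33 were lower (64.7%, against 44.1%). The 2 groups did not overlap for 40 Rab genes (78.4%, against 73.9% of all genes), with Young higher for 10 (against 35.7%) and lower for 30 (against 38.2%). The median log2 difference was -0.37 over the Rab genes and -0.02 over all genes. The Old libraries enter both comparisons, so the values of each are given side by side and not set against each other.

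**Figure D2:**
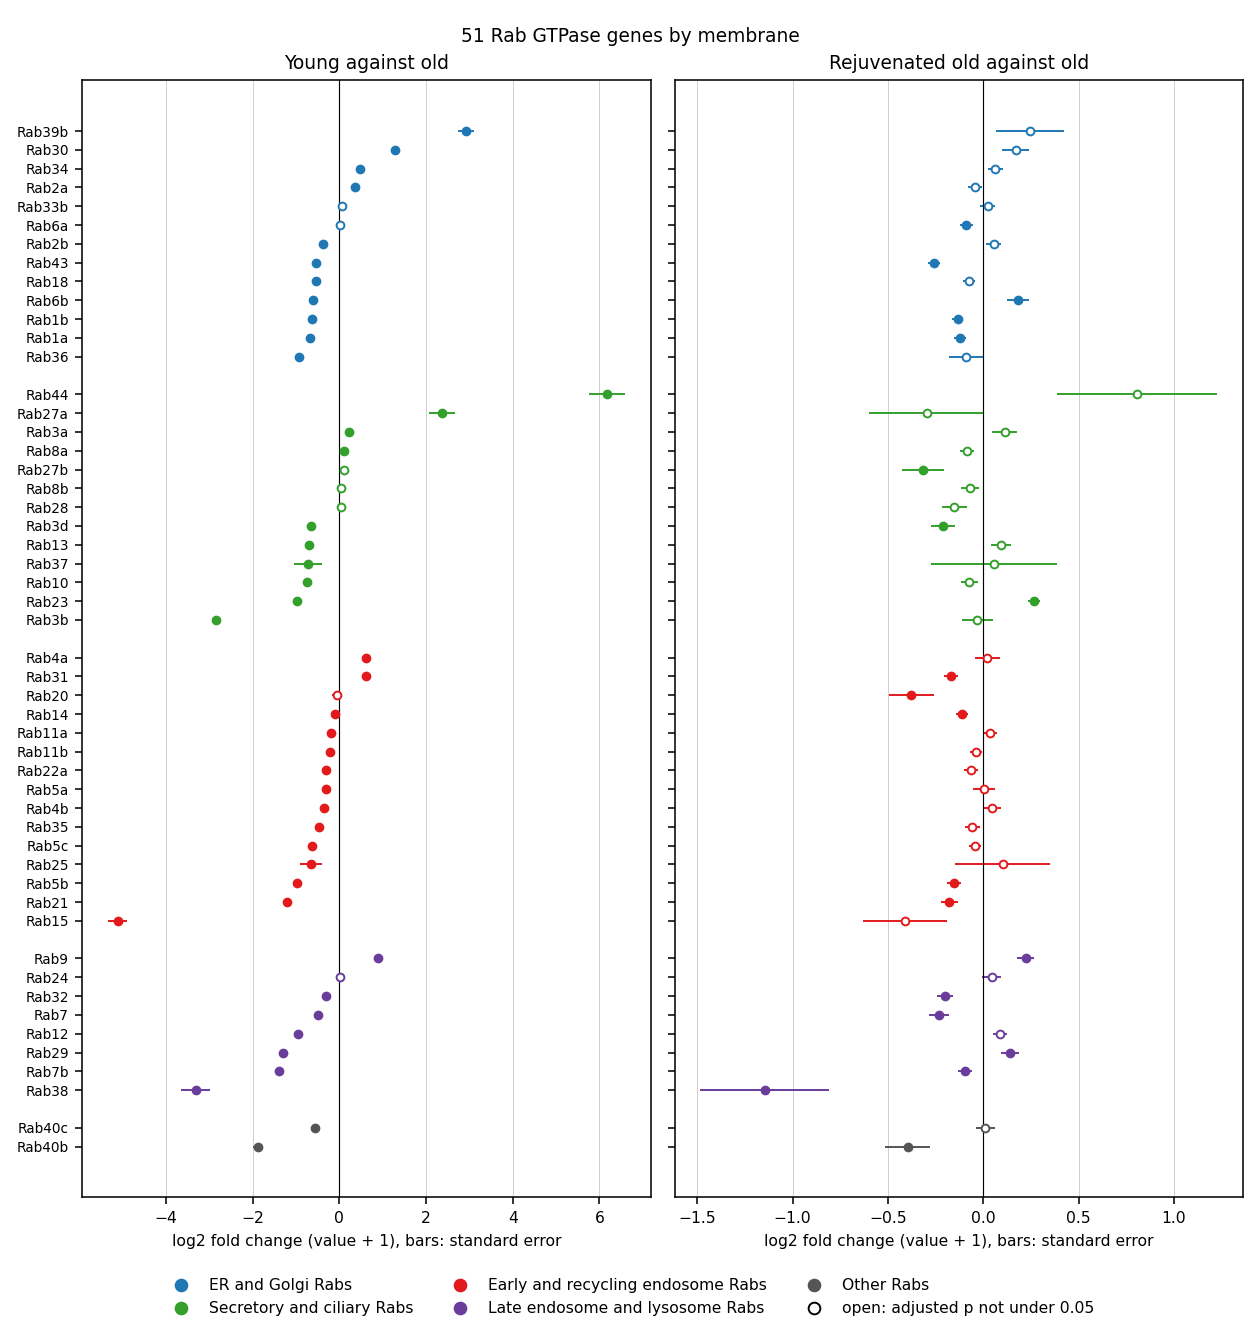
Differences of group means in log2(normalized count + 1) for the 51 Rab genes, Young against Old on the left and Rejuvenated Old against Old on the right, grouped by membrane, with bars for the standard error and open points for an adjusted p not under 0.05. The horizontal scales differ: on the left differences run from -5.11 (Rab15) to 6.17 (Rab44), on the right from -1.15 (Rab38) to 0.81 (Rab44, not under the threshold).

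The Rab genes were grouped by the membrane on which they are best known to act. The counts of each group stand beside 21% of all genes higher and 20.6% lower in co-culture, and 41.6% higher and 44.1% lower in Young against Old. Of 13 Rabs of the ER and Golgi, 1 rose and 4 fell in Rejuvenated Old against Old MSCs, and 4 were higher and 7 lower in Young against Old. Of 13 Rabs of secretion and cilia, 1 rose and 2 fell in co-culture, and 4 were higher and 6 lower in Young. Of 15 Rabs of early and recycling endosomes, 0 rose and 5 fell in co-culture, and 2 were higher and 12 lower in Young. Late endosomes, lysosomes and related organelles had 8 Rabs, of which 2 rose and 4 fell in co-culture, and 1 was higher and 6 lower in Young. Of the remaining pair, Rab40b and Rab40c, which carry a SOCS box and join ubiquitin ligases, 1 fell in co-culture and both were lower in Young. The median log2 difference of Young against Old was -0.37, 0.04, -0.31 and -0.72 for the first 4 groups in this order. In co-culture the same medians were -0.04, -0.07, -0.06 and -0.03. In what follows, 3 values joined for a group are the lowest, median and highest normalized count of its 6 libraries, and differences are in log2(normalized count + 1) with their standard error (SE).

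Rabs of the route from the ER through the Golgi came first in order of secretion. Rab1b (gene 76308, chr19:5099207-5106996, mm10), which with Rab1a carries cargo from the ER to the Golgi, had 4477, 4643 and 4683 in Young, 6851, 7092 and 7614 in Old and 6087, 6591 and 6858 in Rejuvenated Old. Young lay below both other groups, and Rejuvenated Old overlapped Old at the edge. Rab1b was lower by a log2 difference of -0.63 ± 0.03 in Young (limma adjusted p = 6.59e-15) and fell by 0.13 ± 0.03 in co-culture (adjusted p = 0.00131). Rab1a had 5112, 5422 and 5583 in Young, 8195, 8656 and 8751 in Old and 7454, 7986 and 8162 in Rejuvenated Old. The groups did not overlap for Rab1a, with a log2 difference of -0.12 ± 0.03 in co-culture (limma adjusted p = 0.00338).

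Rab43 (gene 69834, chr6:87788853-87812164), a Rab of the Golgi, moved further in co-culture than any other ER or Golgi Rab that changed. Its counts were 2400, 2556 and 2656 in Young, 3461, 3677 and 3785 in Old and 2858, 3102 and 3183 in Rejuvenated Old. The 3 groups lay apart, with Rejuvenated Old in the middle. Rab43 fell by 0.26 ± 0.03 on the log2 scale in co-culture (limma adjusted p = 1.71e-06) and was lower in Young than in Old, with a log2 difference of -0.53 ± 0.03 (adjusted p = 6.96e-13).

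Rab39b and Rab30 were the ER and Golgi Rabs that Young MSCs expressed most above Old. Rab39b (gene 67790, chrX:75572045-75578231), a Golgi Rab best known from neurons, had 218, 241 and 289 in Young, 22.1, 31.9 and 42.1 in Old and 20.8, 38.8 and 53.5 in Rejuvenated Old. Young stood far above both other groups, which overlapped. The log2 difference was 2.92 ± 0.18 for Young against Old (limma adjusted p = 3.27e-13) and 0.25 ± 0.18 for Rejuvenated Old against Old (adjusted p = 0.285, and 0.031 without Rejuvenated Old replicate 2). Rab30 (gene 75985, chr7:92741637-92844535), another Golgi Rab, had 379, 392 and 451 in Young, 149, 167 and 178 in Old and 162, 188 and 204 in Rejuvenated Old. Its log2 difference was 1.30 ± 0.07 for Young against Old (limma adjusted p = 5.58e-14), on a chromosome whose own median was 0.61. For Rejuvenated Old against Old it was 0.17 ± 0.07 (adjusted p = 0.0596). That p was 0.0461 without Old replicate 3, 0.0446 without Old replicate 6 and 0.0241 without Rejuvenated Old replicate 2.

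Among the secretory Rabs, Rab44, Rab27a and Rab3b differed most between Young and Old and did not pass the test in co-culture. Rab44 (gene 442827, chr17:29114128-29148980), a large Rab linked to granule release, had 110.3, 130.0 and 139 in Young, 0, 0.492 and 3.85 in Old and 0, 2.84 and 4.72 in Rejuvenated Old. At most 4 reads were found in an Old library and at most 5 in a Rejuvenated Old library, so the gene was near the limit of detection in both. The log2 difference of Young against Old was 6.17 ± 0.42 (limma adjusted p = 3.07e-12), 6.81 with a pseudocount of 0.5 and 3.61 with one of 10. For co-culture it was 0.81 ± 0.42 (adjusted p = 0.131), with 0.031 without Old replicate 6 and 0.0224 without Rejuvenated Old replicate 4.

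Rab27a (gene 11891, chr9:73044810-73097623) docks granules and multivesicular bodies at the plasma membrane and takes part in exosome release. It was low throughout, at 30.2, 36.4 and 52.2 in Young, 3.23, 6.87 and 9.85 in Old and 1.93, 4.85 and 12.3 in Rejuvenated Old. The Young libraries lay above all others, with a log2 difference of 2.37 ± 0.30 against Old (limma adjusted p = 1.66e-07). Its relative Rab27b (gene 80718, chr18:69979131-70141633), with a like role, had 98.9, 111 and 115 in Young, 81.8, 104 and 108 in Old and 62.4, 80.2 and 108 in Rejuvenated Old. The groups overlapped, and Rab27b fell by 0.32 ± 0.11 on the log2 scale in co-culture (limma adjusted p = 0.0235, and 0.0692 without Rejuvenated Old replicate 5). Young and Old did not pass the test for Rab27b, with a log2 difference of 0.11 ± 0.11 (adjusted p = 0.357).

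Rab3 proteins act in regulated exocytosis, and the 3 members measured went in both directions. Rab3b (gene 69908, chr4:108879070-108943324) had 68.2, 83.6 and 101 in Young, 552, 579 and 624.8 in Old and 524, 567 and 658 in Rejuvenated Old. Young was far below both, with a log2 difference of -2.83 ± 0.08 against Old (limma adjusted p = 3.16e-19), whereas Rejuvenated Old and Old overlapped (-0.03 ± 0.08, adjusted p = 0.8). Rab3d (gene 19340, chr9:21907491-21918199) had 317, 352 and 369.8 in Young, 518, 545 and 609 in Old and 394, 483 and 529 in Rejuvenated Old. It was lower in Young than in Old (-0.65 ± 0.06, adjusted p = 1.92e-09) and fell by 0.21 ± 0.06 on the log2 scale in co-culture (limma adjusted p = 0.00965), with overlap between Old and Rejuvenated Old. Rab3a (gene 19339, chr8:70754703-70758608), the Rab of synaptic vesicles, was higher in Young by a log2 difference of 0.22 ± 0.07 (limma adjusted p = 0.00415), with overlapping libraries. Its co-culture difference was 0.11 ± 0.07 (adjusted p = 0.192).

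Rab23 (gene 19335, chr1:33719896-33742564) acts at the primary cilium and restrains Hedgehog signalling, and it was the 1 Rab gene that rose in co-culture with no overlap between groups. Its counts were 882, 930.3 and 979 in Young, 1755, 1826 and 1871 in Old and 2118, 2222 and 2246 in Rejuvenated Old. Every Rejuvenated Old library was above every Old library, and every Old library above every Young one. The log2 difference was 0.27 ± 0.03 for Rejuvenated Old against Old (limma adjusted p = 9.24e-07) and -0.97 ± 0.03 for Young against Old (adjusted p = 5.3e-18), where the median of chromosome 1 was -0.69. Rab37 (gene 58222, chr11:115091331-115162773), a Rab of secretory granules whose span overlaps Cd300lf, was among the lowest. It passed narrowly as lower in Young than in Old, at -0.72 ± 0.33 (limma adjusted p = 0.0476), with counts of 5.98, 6.96 and 10.7 in Young and 6.45, 12.6 and 24.5 in Old. That call was lost without any one of Young replicates 1 to 4 and 6 or of Old replicates 2 and 4 to 6. The same held without any one of Rejuvenated Old replicates 4 to 6 (limma adjusted p from 0.0503 to 0.135 in these fits). It was also lost without the filter on low values (0.0693), with a pseudocount of 0.5 (0.0505), a replicate block (0.0522) and a single prior variance (0.053). Scaling to the same 75th percentile (0.0577) or to the same total (0.0701) lost it too.

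All 3 Rab5 genes were lower in Young than in Old MSCs. Rab5c (gene 19345, chr11:100715003-100738215), an early endosome fusion Rab, had 4657, 4950 and 5215 in Young, 7457, 7564 and 7878 in Old and 6910, 7467 and 7704 in Rejuvenated Old. The Young libraries were below all others, with a log2 difference of -0.63 ± 0.03 against Old (limma adjusted p = 6.26e-15). In co-culture the difference was -0.04 ± 0.03 (adjusted p = 0.3). Rab5b differed by -0.96 ± 0.04 and Rab5a by -0.31 ± 0.06 between Young and Old (limma adjusted p = 1.36e-16 and 2.87e-05). The spans of Rab5b, Rab10 and Rab20 overlap those of Pmel, Rab10os and E230013L22Rik. Those of Rab5a, Rab6a, Rab3b and Rab4b overlap Pp2d1, Mrpl48, 8030443G20Rik and Mir3101. Whether strand was used in counting is not given, so shared reads cannot be told apart in these genes. Of the Rab5 genes, Rab5b alone fell in co-culture, by 0.15 ± 0.04 on the log2 scale (adjusted p = 0.00269).

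Rab15 (gene 104886, chr12:76797960-76822759), a Rab of the recycling compartment, differed most below Old in Young MSCs. Its counts were 3.04, 7.96 and 19.2 in Young, 284, 301 and 336 in Old and 206, 233 and 248 in Rejuvenated Old. At most 18 reads were found in a Young library. The 3 groups did not overlap. The log2 difference was -5.11 ± 0.22 for Young against Old (limma adjusted p = 6.78e-16), against a chromosome median of -0.46. For Rejuvenated Old against Old it was -0.41 ± 0.22 and did not pass the test in the fit of all 3 groups (adjusted p = 0.148), in which the low Young libraries share the estimate of the spread. Fitted on those 2 groups alone it passed (limma adjusted p = 9.2e-05), as it did on recovered reads with edgeR (0.00118) and DESeq2 (3.18e-07). It also passed without Young replicate 4 (0.0456) and without Young replicate 5 (0.0408).

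Rab20 (gene 19332, chr8:11453390-11478640), which acts in the maturation of phagosomes, and Rab21, Rab14 and Rab31 were further endosomal Rabs that fell in co-culture. Rab20 had 138, 155 and 188 in Young, 125, 166 and 188 in Old and 98.1, 126 and 157 in Rejuvenated Old. The groups overlapped, and Rab20 fell by 0.38 ± 0.12 on the log2 scale in co-culture (limma adjusted p = 0.014) with no difference passing the test between Young and Old (-0.06 ± 0.12, adjusted p = 0.639). Rab21, which moves integrins, fell by 0.18 ± 0.05 in co-culture (limma adjusted p = 0.003) with a difference of -1.20 ± 0.05 for Young against Old (adjusted p = 3.76e-17). Rab14, which links the Golgi and early endosomes, had 4245, 4445 and 4676 in Old and 3954, 4169 and 4218 in Rejuvenated Old. Its groups lay apart by a small margin, at -0.11 ± 0.03 (limma adjusted p = 0.00686). Rab31 had 4020, 4301 and 4652 in Young, 2689, 2824 and 2899 in Old and 2306, 2490 and 2661 in Rejuvenated Old. It carries cargo between the trans-Golgi network and endosomes, and here Rejuvenated Old lay below Old while Young lay above it. The log2 difference of Rab31 was -0.17 ± 0.04 in co-culture (limma adjusted p = 0.00108) and 0.62 ± 0.04 for Young against Old (adjusted p = 4.44e-13).

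Among the Rabs of late endosomes and lysosomes, 6 of 8 changed in co-culture, where 41.6% of all genes tested did. Of these, 2 rose and 4 fell, and the calls for Rab7b and Rab29 were lost in some fits without 1 library. Rab7 (gene 19349, chr6:87999106-88045270), which brings late endosomes and autophagosomes to fusion with lysosomes, had 1726, 1931 and 2024 in Young, 2602, 2697 and 2862 in Old and 1954, 2350 and 2572 in Rejuvenated Old. All Rejuvenated Old libraries were below all Old libraries, and the lowest reached the range of Young. Rab7 fell by 0.23 ± 0.05 on the log2 scale in co-culture (limma adjusted p = 0.000974) and was lower in Young (-0.50 ± 0.05, adjusted p = 5e-09). Rab9 (gene 56382, chrX:166457251-166479867), which returns mannose 6-phosphate receptors from late endosomes to the Golgi, had 4572, 4844 and 4939 in Young, 2491, 2562 and 2850 in Old and 2725, 3014 and 3350 in Rejuvenated Old. Young stood above both, and the other groups overlapped at their edges. Rab9 rose by a log2 difference of 0.22 ± 0.04 in co-culture (limma adjusted p = 0.000228) and was higher in Young by 0.89 ± 0.04 (adjusted p = 4.43e-15).

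Rab38 (gene 72433, chr7:88430273-88491572) and Rab32 serve the transport of enzymes to melanosomes and other organelles related to lysosomes. Rab38 was low, with 0, 2.12 and 5.33 in Young, 24.1, 31.4 and 41.8 in Old and 9.44, 13.3 and 19.6 in Rejuvenated Old. The 3 groups did not overlap. The log2 difference was -1.15 ± 0.34 in co-culture (limma adjusted p = 0.00874) and -3.31 ± 0.34 for Young against Old (adjusted p = 3.94e-09), or -0.80 and -1.70 with a pseudocount of 10. Rab32 had 821, 889 and 969 in Young, 1044, 1113 and 1133 in Old and 889, 957 and 1041 in Rejuvenated Old. Rejuvenated Old lay below Old and overlapped Young, with a fall of 0.20 ± 0.04 on the log2 scale in co-culture (limma adjusted p = 0.000746).

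Rab7b (gene 226421, chr1:131688681-131715443) and Rab29 (gene 226422, chr1:131867210-131872887) are neighbours on chromosome 1 and both act between endosomes and the trans-Golgi network. Rab7b had 419, 429 and 437 in Young, 1053, 1143 and 1168 in Old and 1009, 1052 and 1126 in Rejuvenated Old. Rab29, which recruits the kinase LRRK2, had 258, 267 and 292 in Young, 616, 669 and 706 in Old and 673, 748 and 777 in Rejuvenated Old. Young was below the other groups for both genes, at a log2 difference of -1.40 ± 0.04 for Rab7b and -1.30 ± 0.05 for Rab29 (limma adjusted p = 3.93e-20 and 2.51e-17). After the median of chromosome 1 was taken off, -0.71 and -0.61 remained. In co-culture Rab7b fell by 0.10 ± 0.04 (limma adjusted p = 0.037) and Rab29 rose by 0.14 ± 0.05 (adjusted p = 0.0197), both with overlapping libraries. The call for Rab29 was lost without Old replicate 3 (adjusted p = 0.0563). That for Rab7b was lost without any one of Old replicates 2 to 6 or of Rejuvenated Old replicates 1, 3, 4 and 6 (adjusted p from 0.0515 to 0.0862), when those 2 groups were fitted alone (0.0585) and with libraries scaled to the same 75th percentile (0.0519).

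Rab7b, Rab20, Rab32 and Rab38 are also expressed by macrophages or pigment cells, and macrophage transcripts were far more abundant in Old than in Young libraries. Of these 4 genes, which were picked by hand, Rab7b, Rab32 and Rab38 were lower in Young, and Rab20 did not pass the test (limma adjusted p = 0.639). Rab27a, named above among the Rabs of granules and melanosomes, went the other way and was higher in Young, with a log2 difference of 2.37. Rab44, linked to granule release, was also higher in Young, with 6.17. The part of macrophage transcripts in the differences between Young and Old MSCs was not tested. Between Old and Rejuvenated Old libraries the summed macrophage markers, most of which is Lyz2, overlapped, as did 10 of the 12 genes. Of the other two, Cd68 was lower in Rejuvenated Old (912 to 1025 against 1073 to 1391 normalized counts in Old) and Itgam higher (315.9 to 441 against 231 to 315.4). Rab40b (gene 217371, chr11:121356121-121388251) had 32.95, 38.8 and 46.9 in Young, 126, 148 and 168 in Old and 83.0, 113 and 135 in Rejuvenated Old. Young was far lower (-1.88 ± 0.12, limma adjusted p = 6.12e-13). Rejuvenated Old overlapped Old and fell by 0.40 ± 0.12 on the log2 scale (limma adjusted p = 0.0093).

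**Figure D3:**
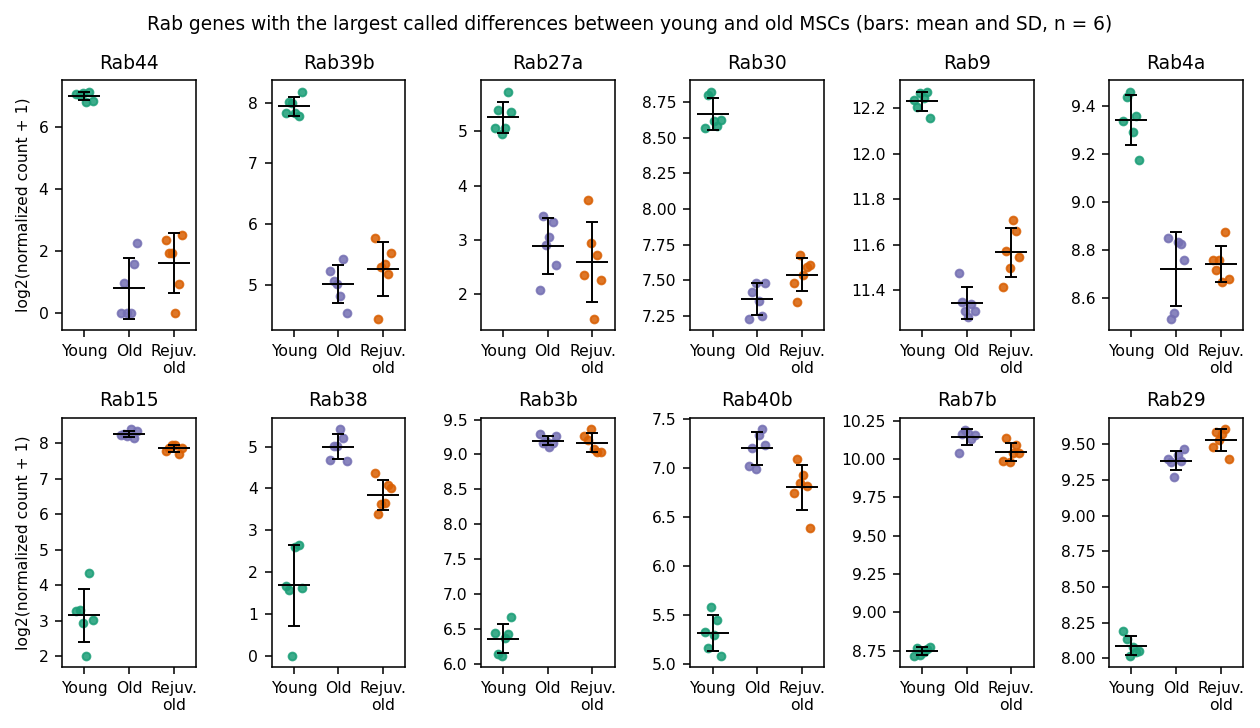
log2(normalized count + 1) of each library for the 6 Rab genes most above and the 6 most below Old in Young MSCs, with the mean and SD of 6 libraries as bars. Axes differ between panels and do not start at 0, and Rejuvenated Old (Rejuv. old) has its mean nearer to Old than to Young in all 12 panels.

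**Figure D4:**
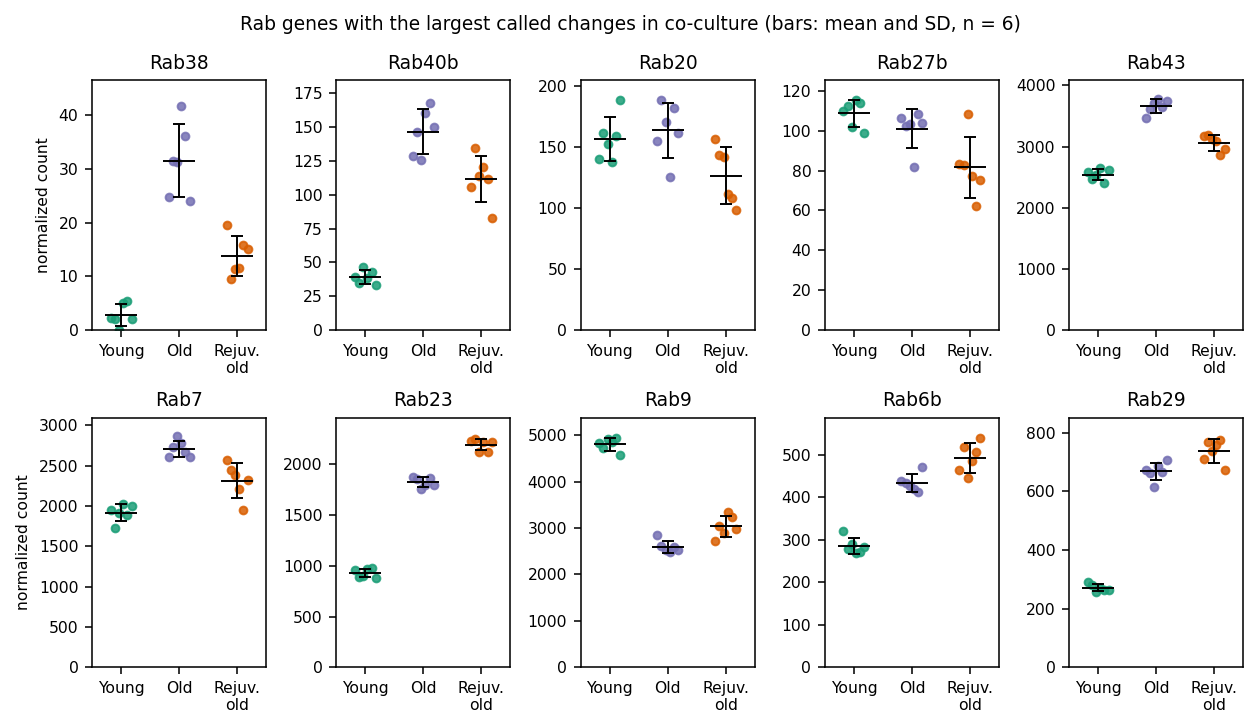
Normalized count of each library for the 6 Rab genes that fell most in co-culture (Rab38, Rab40b, Rab20, Rab27b, Rab43 and Rab7) and the 4 that rose (Rab23, Rab9, Rab6b and Rab29), with the mean and SD of 6 libraries as bars and axes from 0. Rejuvenated Old (Rejuv. old) clears Old without overlap for Rab38, Rab43, Rab7 and Rab23.

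Close relatives did not always go together. Rab2a and Rab2b both act at the Golgi and in the fusion of autophagosomes with lysosomes. Rab2a (gene 59021, chr4:8535469-8607702) had 6369, 6592 and 7164 in Young and 4976, 5153 and 5541 in Old, and Rab2b (gene 76338, chr14:52261759-52279395) had 719, 746 and 796 in Young and 932, 953 and 1031 in Old. Young was above Old for Rab2a (0.37 ± 0.03, limma adjusted p = 1.16e-09) and below it for Rab2b (-0.37 ± 0.04, adjusted p = 6.05e-09), without overlap for either. The span of Rab2b overlaps that of Tox4, and shared reads cannot be told apart there. The Rabs of fast recycling parted in the same way: Rab4a (gene 19341, chr8:123805846-123835291) was higher in Young by 0.62 ± 0.06 (limma adjusted p = 5.95e-09) and Rab4b (gene 19342, chr7:27168433-27178883) lower by a log2 difference of -0.35 ± 0.05 (adjusted p = 2.99e-07). Rab4a had 577, 650.4 and 703 in Young against 364, 442 and 460.2 in Old, and Rab4b had 930.3, 986 and 1035 in Young against 1120, 1270 and 1317 in Old. None of these 4 genes passed the test in co-culture, with log2 differences of -0.04 ± 0.03 for Rab2a, 0.05 ± 0.04 for Rab2b, 0.02 ± 0.06 for Rab4a and 0.04 ± 0.05 for Rab4b.

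Rab6a and Rab6b, which drive transport from and back to the Golgi, parted in co-culture. Rab6a (gene 19346, chr7:100607575-100641268) had 2289, 2416 and 2591 in Old and 2142, 2299 and 2420 in Rejuvenated Old. Rab6b (gene 270192, chr9:103111667-103185276) had 412, 430.4 and 471 in Old and 445, 497 and 541 in Rejuvenated Old. Rab6a fell by 0.09 ± 0.03 on the log2 scale (limma adjusted p = 0.0408) and Rab6b rose by 0.18 ± 0.06 (adjusted p = 0.012), with overlapping libraries for both. The call for Rab6a was lost without any one of Old replicates 1 to 3 or of Rejuvenated Old replicates 3 to 5 (adjusted p from 0.0609 to 0.109). It was also lost when those 2 groups were fitted alone (0.0673), with a replicate block (0.0611), without the filter on low values (0.0582) and with a single prior variance (0.0522). Between Young and Old, Rab6b was lower in Young (-0.60 ± 0.06, limma adjusted p = 9.59e-10) and Rab6a did not pass the test (0.02 ± 0.03, adjusted p = 0.508). The median of chromosome 7, where Rab6a lies, was 0.61 in that comparison. With the median of its own chromosome taken off, Rab6a stood at -0.59 and Rab6b at -0.80.

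**Figure D5:**
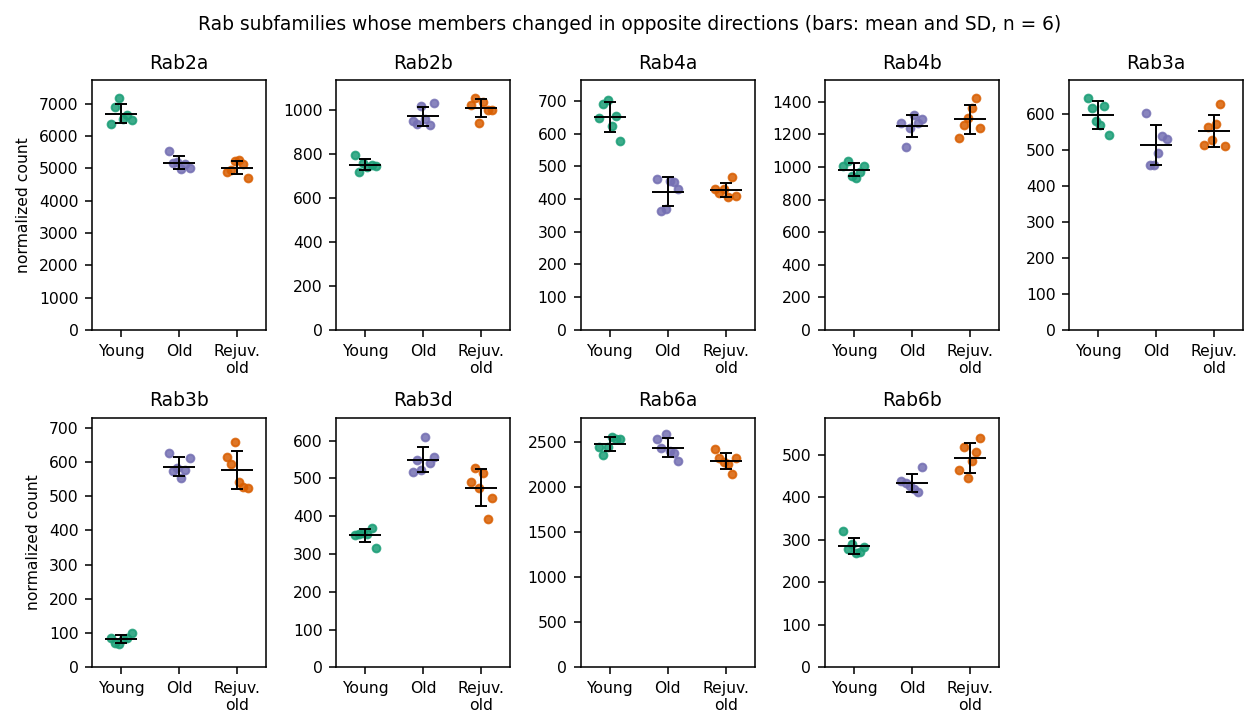
Normalized count of each library for the members of the Rab2, Rab4, Rab3 and Rab6 subfamilies, with the mean and SD of 6 libraries as bars, axes from 0 and Rejuvenated Old written as Rejuv. old. Young is above Old for Rab2a, Rab4a and Rab3a and below Old for Rab2b, Rab4b, Rab3b and Rab3d, while Rab6a and Rab6b part in Rejuvenated Old.

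The medians of some chromosomes on which Rab genes lie also differed between Young and Old. Of the 51 Rab genes, 9 lie on chromosomes 1, 7 and 12, whose medians stood apart between Young and Old libraries. After the median of each gene's own chromosome was taken off, 42 of the 44 Rab genes that differed between Young and Old kept their sign, the exceptions being Rab14 and Rab8a. Rab23 went from -0.97 to -0.28 on the log2 scale, Rab30 from 1.30 to 0.69 and Rab10 from -0.75 to -0.30. Rab15 went from -5.11 to -4.65. Other differences grew: on chromosome 7, with a median of 0.61, Rab38 went from -3.31 to -3.92 and Rab4b from -0.35 to -0.96. With the genes of chromosomes 1, 7, 12 and 16 left out, 36 Rab genes differed between Young and Old and 15 between Rejuvenated Old and Old, 2 higher and 13 lower.

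Young and Rejuvenated Old MSCs differed in most Rab genes. Of the 51, 47 differed, 92.2% against 85.6% of all genes tested, with 15 higher in Young (against 41.5% of all genes) and 32 lower (against 44.1%). The 2 groups did not overlap for 37 Rab genes (against 70.5% of all genes), with Young higher for 10 (against 34%) and lower for 27 (against 36.5%). The 4 that did not pass the test were Rab14, Rab3a, Rab24 and Rab33b, with log2 differences of 0.02 ± 0.03, 0.11 ± 0.07, -0.03 ± 0.05 and 0.03 ± 0.04. They differ in their place in the cell, from endosomes and synaptic vesicles to autophagy, and were named after their values were seen. Rab24 and Rab33b passed the test in no comparison. Rab20 was higher in Young than in Rejuvenated Old by 0.32 ± 0.12 (limma adjusted p = 0.0173, and 0.0541 without Rejuvenated Old replicate 6). Rab27b was higher in Young than in Rejuvenated Old by 0.43 ± 0.11 (limma adjusted p = 0.00108). Rab28, Rab6a and Rab8b were higher in Young too, by 0.19 ± 0.06, 0.11 ± 0.03 and 0.12 ± 0.05 (limma adjusted p = 0.00938, 0.00406 and 0.0347). Rab20, Rab27b, Rab28, Rab6a and Rab8b did not pass the test between Young and Old.

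The regulators of Rabs were taken from hand-written lists. Of 143 measured, 65 changed between Rejuvenated Old and Old, where 41.6% of all genes tested did, and 132 differed between Young and Old, where 85.7% of all genes did. In co-culture 21% of all genes rose and 20.6% fell, and these shares stand beside each count that follows. Of 37 GEFs, 9 rose and 10 fell in co-culture, with a median log2 difference of -0.01. Of 14 subunits of the TRAPP complexes, which load Rab1 and Rab11, 4 rose and 4 fell, with a median of -0.06. Of 38 GAPs, 1 rose and 15 fell, with a median of -0.11, beside 0.01 over all genes tested. Of 8 genes for the lipid tail and for the recycling of Rabs, 1 rose and 2 fell, and of 46 effectors 5 rose and 14 fell. Between Young and Old, 17 GEFs were higher in Young and 19 lower, and 15 GAPs were higher and 19 lower, where 41.6% of all genes were higher and 44.1% lower.

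Tbc1d8, a GAP of the TBC family, had the largest fall of any regulator in co-culture, with 145, 162 and 166 in Old and 64.7, 72.5 and 96.9 in Rejuvenated Old. Its span overlaps that of Rpl31, and shared reads cannot be told apart there. Tbc1d2, a GAP for Rab7, had 424, 439.5 and 485 in Old and 272, 285 and 293 in Rejuvenated Old. Neither gene's groups overlapped, at a log2 difference of -1.04 ± 0.16 for Tbc1d8 and -0.66 ± 0.07 for Tbc1d2 (limma adjusted p = 1.69e-05 and 1.59e-07). The 2 GEFs with the largest called changes in co-culture, both of which act on Rab9, went in opposite directions. Dennd2d rose by 0.70 ± 0.14 and Dennd2c fell by 0.54 ± 0.10 on the log2 scale (limma adjusted p = 0.000312 and 8.17e-05). The span of Dennd2d overlaps those of Cept1 and 2010016I18Rik. Of the TRAPP subunits, Trappc6a and Trappc6b rose by 0.39 ± 0.08 and 0.30 ± 0.04 (limma adjusted p = 0.000219 and 1.07e-05). Of the genes for the lipid tail, the escort protein Chm fell by 0.17 ± 0.05 and the transferase subunit Rabggta rose by 0.14 ± 0.05 (limma adjusted p = 0.0127 and 0.041). The span of Chm overlaps that of Mir361.

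Among effectors, Myo5a, the myosin that holds melanosomes and secretory vesicles on actin, had 4339, 4496 and 4550 in Young, 5616, 5700 and 5862 in Old and 3503, 4094 and 4303 in Rejuvenated Old. Rejuvenated Old lay below both other groups, and the fall in co-culture was 0.52 ± 0.04 on the log2 scale (limma adjusted p = 1.96e-10). Sytl1, which tethers vesicles bearing Rab27, fell by 0.83 ± 0.18 (limma adjusted p = 0.000757), with overlap between Old and Rejuvenated Old. Between Young and Old, several regulators were near absence in 1 group. Y-linked and macrophage transcripts also set these groups apart, and their part here was not tested. The Rab12 GEF Dennd3 had 281, 319 and 353 in Young and 1.00, 3.43 and 10.8 in Old, and the Rab6 effector Bicd1 had 77.1, 86.9 and 95.8 in Young and 1.08, 3.12 and 7.88 in Old. The log2 difference was 6.24 ± 0.39 for Dennd3 and 4.34 ± 0.36 for Bicd1 (limma adjusted p = 5.11e-13 and 1.29e-10). Dennd1c, Sytl4 and Tbc1d30 reached no more than 3 reads in any Young library and were at least 20.6-fold, 25.9-fold and 8.84-fold lower in Young than in Old, taking 3 reads in a library as the floor. In the same comparison, the GAP Sgsm1 differed by 3.85 ± 0.15 (limma adjusted p = 1.33e-16). The TRAPP subunits Trappc10 and Trappc8 differed by -1.65 ± 0.04 and -0.61 ± 0.05 (limma adjusted p = 3.32e-20 and 8.42e-11). Of the lipid tail and recycling genes, Rabif differed by -1.25 ± 0.04 and Chml by 0.69 ± 0.10 (limma adjusted p = 3.71e-18 and 1.46e-06). Both lie on chromosome 1, with a median of -0.69, and the span of Chml overlaps Opn3.

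The sequence before the start of the Rab genes was searched for CACGTG, the palindromic E-box that the lysosomal regulators TFEB and MITF bind, as do MYC and USF proteins. The window held 250 bases before and 50 after each start in RefSeq (GRCm38.p6), and 41 of the 51 Rab genes had one. Of these, 6 held the motif (14.6%), against 1260 of 10951 genes tested (11.5%). They were Rab20 and Rab21, which fell in co-culture, Rab23, which rose, and Rab5a, Rab24 and Rab27a, which did not pass the test. Windows of 60 bases that overlap no annotated exon are shown for 3 of them, since they include the 1 Rab gene that rose without overlap and an exosome Rab, with the motif in capitals. The Rab23 window is chr1:33719651-33719710, with the motif starting 218 bases before the start, and the Rab27a window is chr9:73063898-73063957, 246 bases before a start inside the gene's span. The Rab5a windows are chr17:53478984-53479043 and chr17:53479112-53479171, 235 and 95 bases before the start, and all 4 are on the plus strand, written from 5′ to 3′.
Rab23: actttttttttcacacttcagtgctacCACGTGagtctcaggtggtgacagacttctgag
Rab27a: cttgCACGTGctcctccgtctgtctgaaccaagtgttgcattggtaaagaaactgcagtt
Rab5a, distal: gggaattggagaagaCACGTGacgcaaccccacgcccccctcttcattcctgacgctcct
Rab5a, proximal: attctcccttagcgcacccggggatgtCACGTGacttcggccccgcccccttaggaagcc
The shared letters are a match of sequence, and binding was not measured. The Rab genes with a match went in both directions in co-culture, and their share was near that of all genes.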

How the data were processed

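The 18 libraries, 6 per group of Young, Old and Rejuvenated Old MSCs, were made with a stranded mRNA kit. The submitters' processing notes name the mm10 genome, HISAT2, StringTie, featureCounts and DESeq2. Versions, gene annotation, strand setting and filters are not given in the sources used here. The authors deposited a signal for each gene in each library, made by dividing read counts by a size factor. They were whole multiples of 1 read for 100% of values, within 5.55e-05 of a read, which gave 22936251 to 29559194 reads on genes per library. The floor was set at 3 reads: a gene that stayed at or under it throughout a group was taken as not detected there. This floor covers counting error only. Genes carry Entrez numbers, of which 25275, and all 51 Rab genes, were found in RefSeq GRCm38.p6, the source of coordinates. Transcript lengths are those of the longest coding transcript in GENCODE vM21. Columns left unused numbered 0.

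limma 3.58.1 in R 4.3.3 was run on log2(value + 1) for the 14353 genes whose mean was 10 or more, with a mean per group, a prior variance following the mean and Benjamini-Hochberg adjustment over all these genes at 0.05. A fold change on this scale understates the change of low genes. All 3 groups entered 1 fit, since they then share the estimate of spread. edgeR 4.0.16 and DESeq2 1.42.0 on the recovered reads, other scalings, filters, pseudocounts and thresholds, a replicate block and fits without 1 library were alternatives. Scripts were tested on simulated data. Figures used Python 3.11.15 with numpy 2.4.6, pandas 2.3.3 and matplotlib 3.10.9.

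The Rab genes and the lists were chosen with earlier results of these data known. Genes named were the 6 Rab genes that rose most and the 6 that fell most, among those called, in each comparison with Old, the 3 highest and 3 lowest per kb, subfamilies with opposite changes, and 2 genes of each regulator list per comparison. Other Rab genes described were chosen after their values were seen. Same-numbered replicates of the 3 groups were checked for pairing: their 18 correlations ran from -0.152 to 0.0736, so no deviation shared by number was seen. Whether same-numbered cultures had a donor or a day in common cannot be told from this.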

Additional observations from a re-analysis of the deposited data

Results flagged for a closer look

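In the 27 named Rab genes, 81 sets of 6 libraries were searched for a library that stands apart from the other 5 by Dixon's test, and 6 were found, where chance gives about 1 in 20. Rab3d in Young replicate 6 had 317 normalized counts where the other Young libraries had 350.4 to 369.8. Rab37 in Young replicate 5 had 10.7 where the others had 5.98 to 7.62. Rab27b in Old replicate 4 had 81.8 where the others had 102 to 108. Rab15 in Young replicate 5 had 19.2 where the other Young libraries had 3.04 to 8.96. Rab1b in Young replicate 6 had 4477 against 4633 to 4683 in the others. Rab9 in Old replicate 1 had 2850 against 2491 to 2608 in the other Old libraries, which is the library nearest to Rejuvenated Old for this gene.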

How the results depend on the processing

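The count of Rab genes called stayed within 1.5 times in each comparison under every other test, scaling, filter and pseudocount tried. Asking also for a log2 difference of at least 0.5 left 1 Rab gene of 20 between Rejuvenated Old and Old and 26 of 47 between Young and Rejuvenated Old. The same limit left 7 regulators between Rejuvenated Old and Old, 62 between Young and Old and 65 between Young and Rejuvenated Old. In fits without 1 library, Rab calls ran from 18 to 23, 43 to 44 and 44 to 47 in Rejuvenated Old against Old, Young against Old and Young against Rejuvenated Old, and regulator calls from 62 to 69, 127 to 132 and 120 to 125. With a replicate block 19, 43 and 46 Rab genes were called, and no deviation shared by same-numbered libraries was seen. Rab37 turned with quantile normalization, to 0.0752 (limma adjusted p = 0.872) in Young against Old and 0.107 (0.818) in Young against Rejuvenated Old, and the cause was not tested. Without chromosomes 1, 7, 12, 16 and X, chosen after seeing the data, 14, 34 and 36 Rab genes were called. Rab3a passed in Young against Rejuvenated Old with the totals set equal (0.20, adjusted p = 0.00834), with quantile normalization (0.18, adjusted p = 0.0172) and without Rejuvenated Old replicate 5 (adjusted p = 0.0445). Depth limits Rab44, Rab38, Rab27a, Rab15, Rab37 and Rab25, which had few reads in at least 1 group.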

Other observations

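The 8 Rab genes below a mean of 10 were not tested. The nearest to that limit was Rab33a, with a mean of 8.98 normalized counts over the 18 libraries, and the lowest tested were Rab37 with 12.03 and Rab25 with 12.1. Rab42 had 0, 1.05 and 3.35 normalized counts as its lowest, median and highest value in Young, 7.53, 8.28 and 15.5 in Old and 4.66, 5.99 and 15.2 in Rejuvenated Old libraries. Its Young libraries lay below all others. Rab26, a Rab of secretory granules, had 3.04, 4.21 and 12.3 in Young and 0, 1.04 and 1.92 in Old libraries. Rab9b was at 0 in all Old and Rejuvenated Old libraries, and Rab17, a Rab of polarized epithelia, was at 0 in all Rejuvenated Old libraries. The other low genes were Rab19, Rab39 and Rab3c, with means of 2.78, 3.99 and 0.925.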
